A study of Mus musculus with 6 samples.

Results

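The interleukin-1 (IL-1) family genes Il1a, Il1b, Il33, Il18, Il1rn, Il1r2, Il18bp, Il1r1, Il1rap and Il1rl1 were examined in LPS-exposed mesenchymal stromal cells from mouse bone marrow. These 10 genes were taken from the deposited expression table by gene name, and all 10 were found among its 55401 genes. The cells were flushed from the femur of C57/B6J mice, grown in low glucose medium with fetal bovine serum and exposed to 3 µg/mL lipopolysaccharide (LPS), a bacterial outer membrane component, for 24 h. One group of 3 libraries came from wild-type (WT) cells and the other group of 3 from NLRP3-/- cells, called knockout below, and both groups received LPS, so that the comparison is between genotypes and not with unstimulated cells. The labels do not state how the knockout was made, the age of the mice, or whether replicates are separate mice or dishes. The p-values therefore cover the spread among replicates alone, which may be technical, and a difference between starting cultures cannot be told apart from one of genotype.

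IL-1α (Il1a) and IL-1β (Il1b) bind the receptor chain IL1R1, which then recruits the co-receptor chain IL1RAP and signals through MyD88 to NF-κB. The antagonist IL1RN occupies IL1R1 without recruiting IL1RAP, and IL1R2 is a decoy that binds ligand without signalling. IL-33 acts through ST2 (Il1rl1), which also pairs with IL1RAP, and IL-18 has its own receptor and is held in solution by the binding protein IL18BP. IL-1β and IL-18 are made as precursors that caspase-1 cleaves within inflammasomes such as the one built on NLRP3, a protein step that RNA levels do not report. In marrow cultures macrophages are a major source of IL-1α and IL-1β, and stromal cells carry the receptors.

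Levels are given as FPKM (fragments per kilobase of transcript and per M mapped fragments, as deposited), which is scaled to gene length and so allows levels of different genes to be set side by side. Libraries held 53.2 to 66.3 M estimated counts, or about 13.3 to 16.6 M fragments. Genes reaching 1 FPKM in 3 or more libraries entered a limma fit on log2(FPKM + 1), and a gene was called at an adjusted p under 0.05 (Benjamini-Hochberg over all 12136 tested genes). Fold changes are knockout minus WT on that scale, where weakly expressed genes show less than their true change. Of all tested genes 19.6% were called, 10.4% higher and 9.2% lower in the knockout. Nlrp3 itself stood at 2.76, 1.68 and 1.86 FPKM in the WT libraries and at 0 in each knockout library (exact two-sided permutation p = 0.1, the smallest that 3 libraries against 3 allow), as the labels state.

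Of the 4 ligand genes 3 were higher in the knockout cultures, and the 3 signalling receptor genes were lower. Of the 10 members 9 passed the expression filter, Il1r2 being the exception. Il1a, Il1b and Il33 rose, Il1r1, Il1rap, Il1rl1 and Il18bp fell, and Il1rn and Il18 were not called. The median log2 fold change of the 9 was -0.12, against 0.01 over all tested genes. The 3 libraries of each genotype did not overlap for the same 7 called members, 3 with the knockout above and 4 with it below. Calls and overlap rest on the same values, so that the lack of overlap adds no second support. Il33, among the 3, passed the filter only through the knockout libraries, so that its lack of overlap was built into its being tested. Of all tested genes 36.7% had groups that did not overlap, 18.8% with the knockout above and 18.0% with it below. The members span chromosomes 1, 2, 7, 9, 16 and 19, and none lies on chromosome 11, which carries Nlrp3.

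**Figure D1:**
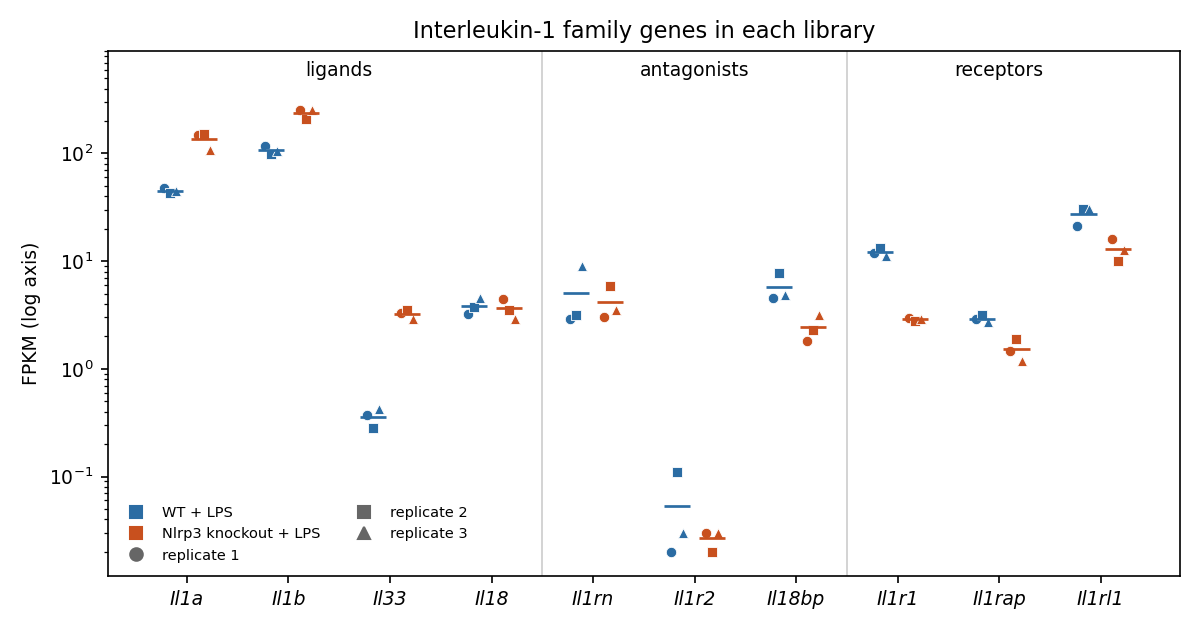
FPKM (log axis) of the 10 members in each of the 6 libraries. Blue symbols are WT and orange symbols knockout libraries, the symbol shape gives the replicate number, which has no order, and horizontal lines are group means. Il1b and Il1a are the most abundant members in both genotypes, Il33 lies between 0.28 and 0.42 in WT and between 2.90 and 3.54 in the knockout, and Il1r2 lies at or below 0.11 throughout.

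Among the ligands, Il1b (ENSMUSG00000027398, GRCm38 chr2:129364570-129371139, minus strand) was the most abundant member in either genotype. It stood at 117.59, 98.91 and 105.87 FPKM in WT replicates 1, 2 and 3 and at 253.81, 211.02 and 251.62 in knockout replicates 1, 2 and 3. Every knockout library was above every WT library, and the mean rose 2.22-fold (log2 fold change 1.14 ± 0.11 SE, limma adjusted p = 0.000593). By mean FPKM among the 12136 tested genes Il1b ranked 404 in WT and 177 in knockout libraries.

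Il1a (ENSMUSG00000027399, GRCm38 chr2:129299610-129309972, minus strand), whose product is active without caspase-1 cleavage, showed FPKM values of 47.83, 42.86 and 45.24 in the WT libraries and 149.25, 152.83 and 108.77 in the knockout libraries. The knockout values were all more than 2 times any WT value, with replicate 3 the lowest of them. The mean rose 3.02-fold (log2 fold change 1.56 ± 0.14 SE, limma adjusted p = 0.000482). Il1a and Il1b are neighbours in the same orientation, with 61.2 kb between their start sites. Il1a ranked 1037 by level in WT and 304 in knockout libraries.

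Il33 (ENSMUSG00000024810, GRCm38 chr19:29925114-29960718, plus strand), which encodes a nuclear alarmin released from damaged cells, was nearly absent from the WT libraries. It stood at 0.37, 0.28 and 0.42 FPKM there and at 3.28, 3.54 and 2.90 in the knockout libraries. The WT values rest on about 51.0 fragments over 3 libraries and the knockout values on about 470. Mean FPKM rose 9.08-fold, the largest ratio among the members. The log2 fold change was 1.64 ± 0.09 SE on the log2(FPKM + 1) scale (limma adjusted p = 8e-05) and 3.14 in edgeR on the estimated counts, where no offset of 1 is added. Il33 passed the expression filter only through the knockout libraries, so that a difference between the groups was built into its being tested.

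Il18 (ENSMUSG00000039217, GRCm38 chr9:50554827-50581840, plus strand) was the ligand that was not called. Its FPKM values were 3.24, 3.79 and 4.53 in WT and 4.49, 3.55 and 2.90 in knockout libraries, and the groups overlapped over most of their range. The log2 fold change was -0.07 with a 95% interval of -0.44 to 0.30 (limma adjusted p = 0.812), which leaves out changes of the size seen for the other 3 ligands. About 49.5 to 82.0 fragments per library support these values.

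Promoter sequences of the called ligand genes and of Il1r1 are shown because these ligand genes and Il1r1 moved in opposite directions. The promoter of Il18 and the other windows of Il33 and Il1r1 are not printed. Sequences are those of RefSeq (GRCm38.p6), from 250 bases before to 50 bases after an annotated start site, read 5′ to 3′ on the gene's strand. All 10 members matched, with 15 promoters in all. The Il1a window is chr2:129309923-129310222 (minus strand), that of Il1b chr2:129371090-129371389 (minus strand), that of Il33 chr19:29945540-29945839 (plus strand, the downstream one of 2 annotated start sites) and that of Il1r1 chr1:40224830-40225129 (plus strand, the upstream one of 2). The printed Il33 start site lies 20676 bases from the 5′ end of the deposited gene, and the other Il33 start site 1 base from it. Capitals mark matches, on either strand, to TATAAA (the TATA box), TGANTCA (AP-1), GAGGAA (a core bound by PU.1), TTNNGCAA (C/EBP) or the κB consensus. No matches overlapped in these 4 windows.
Il1a: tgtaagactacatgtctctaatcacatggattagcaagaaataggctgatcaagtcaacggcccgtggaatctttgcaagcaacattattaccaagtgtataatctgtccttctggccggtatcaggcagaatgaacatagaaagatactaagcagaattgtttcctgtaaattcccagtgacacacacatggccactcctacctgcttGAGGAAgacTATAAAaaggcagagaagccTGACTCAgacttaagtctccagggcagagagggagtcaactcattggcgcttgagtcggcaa
Il1b: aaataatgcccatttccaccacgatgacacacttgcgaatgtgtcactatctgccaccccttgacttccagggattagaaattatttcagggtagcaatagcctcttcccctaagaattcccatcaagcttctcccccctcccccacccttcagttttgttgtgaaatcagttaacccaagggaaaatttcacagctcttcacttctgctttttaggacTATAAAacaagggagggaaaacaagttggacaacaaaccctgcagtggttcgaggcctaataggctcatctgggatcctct
Il33: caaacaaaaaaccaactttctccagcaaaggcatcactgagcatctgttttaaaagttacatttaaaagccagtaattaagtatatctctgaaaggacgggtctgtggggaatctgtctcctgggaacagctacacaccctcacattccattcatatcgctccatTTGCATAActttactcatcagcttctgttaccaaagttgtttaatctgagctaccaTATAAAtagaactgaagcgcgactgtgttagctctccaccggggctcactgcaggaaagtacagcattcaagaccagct
Il1r1: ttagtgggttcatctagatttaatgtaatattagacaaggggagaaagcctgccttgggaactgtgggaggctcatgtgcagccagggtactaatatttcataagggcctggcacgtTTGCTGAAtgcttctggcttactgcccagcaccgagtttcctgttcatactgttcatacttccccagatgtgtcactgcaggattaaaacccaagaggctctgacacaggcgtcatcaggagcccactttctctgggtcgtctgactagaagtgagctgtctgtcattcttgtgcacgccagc

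TATAAA was the motif that the ligand promoters shared. All 5 ligand promoters held it, including both of Il33 and that of Il18, which was not called, against 1 of 5 antagonist promoters, 0 of 5 receptor promoters and 13.6% of the 32851 promoters of the same length in the table. Counted with the start site as 0, its first base lay at -32 in Il1a, -31 in Il1b and -29 in the Il33 window printed above, but at -203 in the other Il33 window and at -175, on the opposite strand, in that of Il18. The Il1a window also held an AP-1 match at -12 (7.81% of all promoters hold one) and a PU.1 core at -41 (28.3%). The Il33 window that is not printed held PU.1 cores at -4 and 2, and 3 of the 15 windows held that core. C/EBP matches (10.8% of all promoters) lay at -85 in the Il33 window and at -133 in that of Il1r1. The κB consensus (4.51% of all promoters) was found in 1 of the 15 windows, at the downstream start site of Il1r1, which is not printed. These are matches of letters within 300 bases and do not show binding.

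Of the antagonists, Il1rn (ENSMUSG00000026981, GRCm38 chr2:24336853-24351494, plus strand) did not follow the ligands it competes with. It stood at 2.90, 3.14 and 9.10 FPKM in WT and at 3.05, 5.89 and 3.54 in knockout libraries. WT replicate 3 stood well above the other two WT libraries, and the knockout values lay within the WT range. The log2 fold change was -0.12 with a 95% interval of -1.07 to 0.83 (limma adjusted p = 0.870), too wide to leave out a 2-fold decrease. Without WT replicate 3 the log2 fold change was 0.32, of opposite sign and still not called. The table sums 6 transcripts for this gene, so that its secreted and intracellular forms, which start at different sites, cannot be separated.

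The ratio of agonist to antagonist RNA within a library, (Il1a + Il1b)/Il1rn in FPKM, was 57.0, 45.1 and 16.6 in WT and 132, 61.8 and 102 in knockout libraries. Every knockout library had a higher ratio than every WT library, and the lowest WT ratio belonged to the library with the high Il1rn value. On the log2 scale the mean ratio was 5.13 ± 0.95 (SD, n = 3) in WT and 6.55 ± 0.56 (SD, n = 3) in the knockout, a difference of 1.43 (exact two-sided permutation p = 0.1, the smallest possible). Without WT replicate 3 the difference was 0.89.

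Il18bp (ENSMUSG00000070427, GRCm38 chr7:102014885-102018197, minus strand), the soluble inhibitor of IL-18, fell while its ligand was not called. Its FPKM values were 4.51, 7.84 and 4.86 in WT and 1.83, 2.31 and 3.13 in knockout libraries. All knockout values were below all WT values, with WT replicate 2 standing above the other WT libraries (log2 fold change -0.96 ± 0.22 SE, limma adjusted p = 0.0243). The call was lost without WT replicate 3 (limma adjusted p = 0.052), without knockout replicate 1 (0.0818) or 2 (0.0698), and with no expression filter (0.0554).

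Il1r2 (ENSMUSG00000026073, GRCm38 chr1:40074079-40125231, plus strand), the decoy receptor, was barely detected. It had 0.02, 0.11 and 0.03 FPKM in WT and 0.03, 0.02 and 0.03 in knockout libraries, which correspond to about 5.75 and 2.75 fragments per genotype. No difference was detectable at this depth.

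The receptor Il1r1 (ENSMUSG00000026072, GRCm38 chr1:40225080-40317257, plus strand), the chain that binds IL-1α and IL-1β, had the largest decrease among the members. It stood at 11.86, 13.31 and 11.14 FPKM in WT and at 2.97, 2.80 and 2.91 in knockout libraries. The knockout libraries were tightly grouped and far below every WT library, and the mean was 4.18-fold lower (log2 fold change -1.75 ± 0.08 SE, limma adjusted p = 3.74e-05). Of the 12136 tested genes 66 had a lower log2 fold change.

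Il1rap (ENSMUSG00000022514, GRCm38 chr16:26581704-26730117, plus strand), the co-receptor shared by IL-1 and IL-33 receptors, fell less. Its FPKM values were 2.93, 3.13 and 2.74 in WT and 1.46, 1.9 and 1.18 in knockout libraries, without overlap (log2 fold change -0.66 ± 0.12 SE, limma adjusted p = 0.0105). The ratio of Il1r1 to Il1rap was 4.05, 4.25 and 4.07 in WT and 2.03, 1.47 and 2.47 in knockout libraries. The balance of the 2 chains was nearly the same in all WT libraries and lower in every knockout library, by 1.08 on the log2 scale (2.04 ± 0.04 against 0.96 ± 0.38, SD, n = 3 each; exact two-sided permutation p = 0.1, the smallest possible).

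Il1rl1 (ENSMUSG00000026069, GRCm38 chr1:40429570-40448148, plus strand), which encodes the IL-33 receptor ST2, was the most abundant receptor. It stood at 21.16, 30.79 and 30.22 FPKM in WT and at 16, 9.96 and 12.83 in knockout libraries. All knockout libraries were below all WT libraries, although WT replicate 1 and knockout replicate 1 lay close to each other (log2 fold change -1.03 ± 0.20 SE, limma adjusted p = 0.0137). The call was lost without WT replicate 2 (limma adjusted p = 0.0501) or 3 (0.0548). Its ligand Il33 moved in the opposite direction in the same libraries. Membrane-bound and soluble ST2 are made from different transcripts of this gene, and the 5 transcripts summed in the table cannot be separated.

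**Figure D2:**
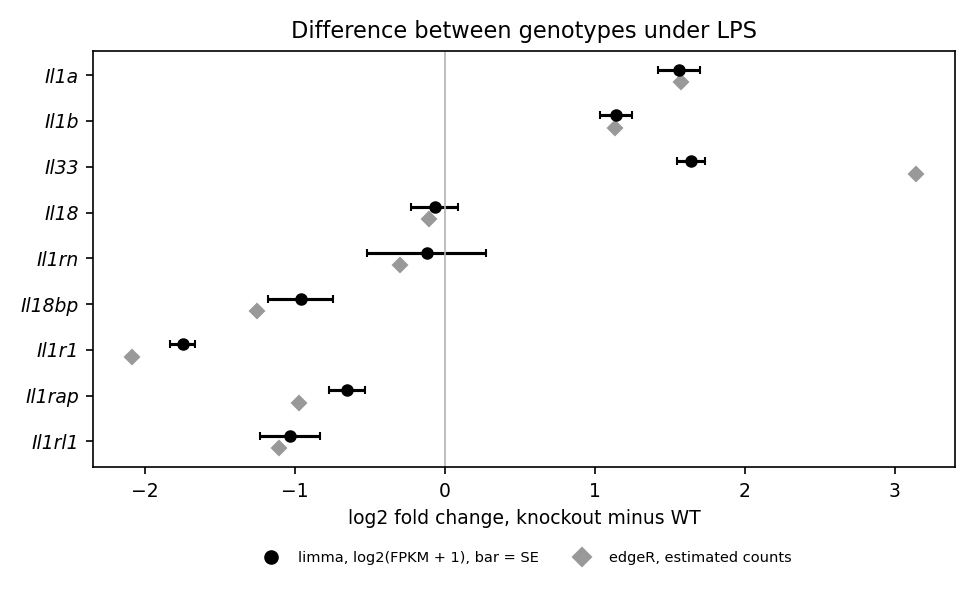
Log2 fold change, knockout minus WT, of the 9 tested members. Black circles are limma estimates on log2(FPKM + 1) with their SE, and grey diamonds are edgeR estimates on the estimated counts. Il1a, Il1b and Il33 lie to the right of 0, Il18bp, Il1r1, Il1rap and Il1rl1 to the left, and the 2 scales differ most for Il33 (1.64 and 3.14).

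**Figure D3:**
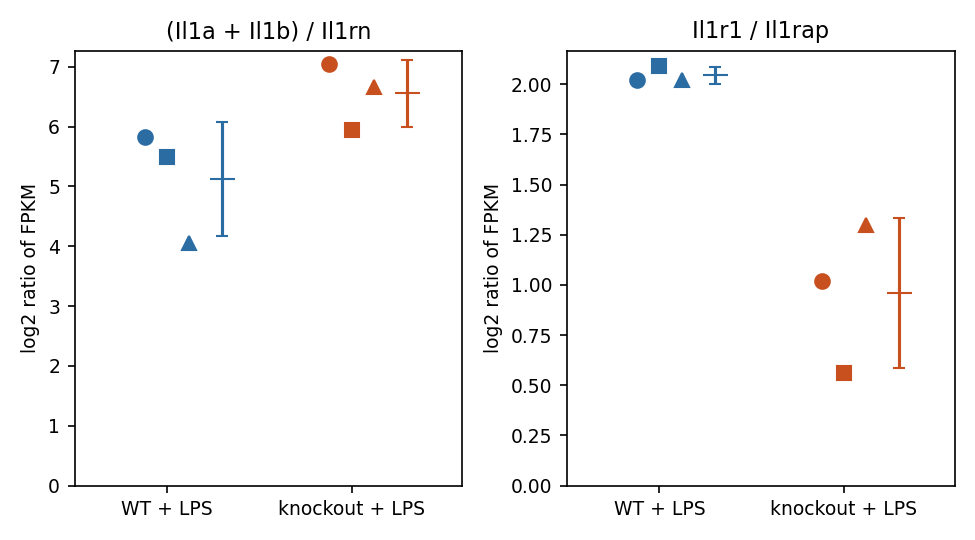
Log2 ratio of FPKM within each library for agonists to antagonist (left) and for receptor chain to co-receptor chain (right). Symbols are libraries, shaped by replicate number, and the bars beside them give mean ± SD of 3. The agonist ratio is higher in every knockout library, and the receptor ratio is lower in every knockout library.

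The order of the members by level differed between the genotypes. In WT libraries Il1b, Il1a, Il1rl1 and Il1r1 followed each other without overlap between neighbours, and Il18bp, Il1rn and Il18 came next with overlapping ranges. Il1rap, Il33 and Il1r2 closed the order, each below its neighbour in every library. In knockout libraries Il1b, Il1a and Il1rl1 kept the first 3 places without overlap. Il1rn, Il18, Il33, Il1r1 and Il18bp, with means between 4.16 and 2.42 FPKM, each overlapped the next, and Il18bp overlapped Il1rap. Il1r1 thus took place 4 in WT and place 7 in knockout libraries, and Il33 place 9 and place 6.

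The position of the receptor genes was also examined. Il1r2, Il1r1, Il1rl2, Il1rl1, Il18r1 and Il18rap lie in this order within 477.6 kb of chromosome 1. Il1rl2, which encodes the IL-36 receptor chain, fell from 3.05 ± 0.212 to 2.02 ± 0.215 FPKM (SD, n = 3; log2 fold change -0.42, limma adjusted p = 0.0183), a call lost without WT replicate 1 (0.072) or 2 (0.0737). Il18rap, the accessory chain of the IL-18 receptor, had mean levels of 1.34 and 1.32 FPKM and no call (adjusted p = 0.959). Il18r1, the IL-18 binding chain, was listed at 0 in all 6 libraries. Of the 11 further family ligands and receptors, all matched to the table, Il1rl2 and Il18rap passed the filter and 6 were listed at 0 in every library. The IL-36 ligand genes Il1f6 and Il1f9 had means of at most 0.147 FPKM, and Sigirr had means of 0.037 and 0.127. For Il1f9 and Sigirr every knockout library was above every WT library, on at most 8.0 fragments per library. Neither was called by edgeR on the estimated counts (adjusted p = 0.11 and 0.0911).

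Macrophage and stromal marker genes moved with the members. All 22 tested markers of the macrophage list of 27 genes rose (median log2 fold change 0.96, range 0.49 to 2.11), against 10.4% of all tested genes. The summed FPKM of the list was 769 to 874 in WT and 1780 to 2040 in knockout libraries, and none of the 27 was at 0 in every library. With 1 library left out, 17 to 21 of the markers were called. Adgre1, which encodes the macrophage surface protein F4/80, rose from 44.0 to 134 FPKM, while the leukocyte marker Ptprc was below the filter at 0.303 and 0.843. Marco, a scavenger receptor, rose from 10.2 to 47.2 FPKM and Clec4d, a lectin receptor, from 12.1 to 43.6. In bulk RNA a larger number of macrophages and more RNA per macrophage cannot be told apart. Of 19 tested stromal markers 12 fell and 4 rose (median -0.45), against 9.2% and 10.4% of all tested genes. Thy1 fell from 134 to 11.8 and Pdgfra from 30.2 to 2.96, while Nes rose from 11.1 to 33.7 and Nt5e from 0.183 to 2.35. The stromal marker Nt5e, the macrophage marker Aif1 and the granulocyte marker S100a8 passed the filter only through the knockout libraries, so that their counting as higher was built into their being tested.

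Levels of the ligands were therefore also expressed against the geometric mean FPKM of the 22 tested macrophage markers, a scale chosen after the values were seen and given with no test. The 22 markers all rose, and they include Aif1, which passed the filter only through the knockout libraries. Their log2 fold changes on the log2(FPKM + 1) scale ranged from 0.49 to 2.11, so that differences relative to them depend on the markers averaged. The ratios below are of FPKM with no offset added, unlike those fold changes. Their geometric mean was 13.22 to 14.06 in WT and 29.09 to 31.93 in knockout libraries. Against it Il1b had log2 ratios of 3.06, 2.88 and 3.00 in WT and 3.07, 2.86 and 2.98 in knockout libraries, a difference of -0.01. Relative to macrophage markers Il1b RNA differed between the genotypes by less than the spread of the libraries. Il1a had 1.77, 1.68 and 1.77 in WT and 2.30, 2.39 and 1.77 in knockout libraries, so that 2 knockout libraries were above the WT values and the other was equal to the highest of them. For Il33 the difference was 2.03, less than its log2 fold change of 3.14 in edgeR, where no offset is added either. Il18 and Il1rn were lower in every knockout library on this scale, with differences of -1.25 and -1.29.

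Against the geometric mean of the 19 tested stromal markers, which was 32.91 to 36.36 FPKM in WT and 21.71 to 22.67 in knockout libraries, the receptors were compared in the same way. Il1r1 had log2 ratios of -1.51, -1.45 and -1.56 in WT and -2.87, -3.02 and -2.96 in knockout libraries. Its decrease thus exceeded that of the list mean by 1.44. On the log2(FPKM + 1) scale, log2 fold changes of single stromal markers ranged from -3.40 to 1.52, so that some fell more than Il1r1 and others rose. The list mean includes Nt5e, which passed the filter only through the knockout libraries and whose rise makes the fall of that mean smaller. For Il1rl1 and Il1rap the differences against the list mean were -0.47 and -0.36. The ratios of Il1rl1 overlapped between the genotypes, and those of Il1rap overlapped as well (-3.59 to -3.53 in WT and -4.26 to -3.58 in the knockout). The ligand Il33, set against the same stromal list mean, differed by 3.82, compared with 2.03 against the macrophage markers. Il33 also passed the filter only through the knockout libraries. The part of cell composition in the members' differences was not tested.

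**Figure D4:**
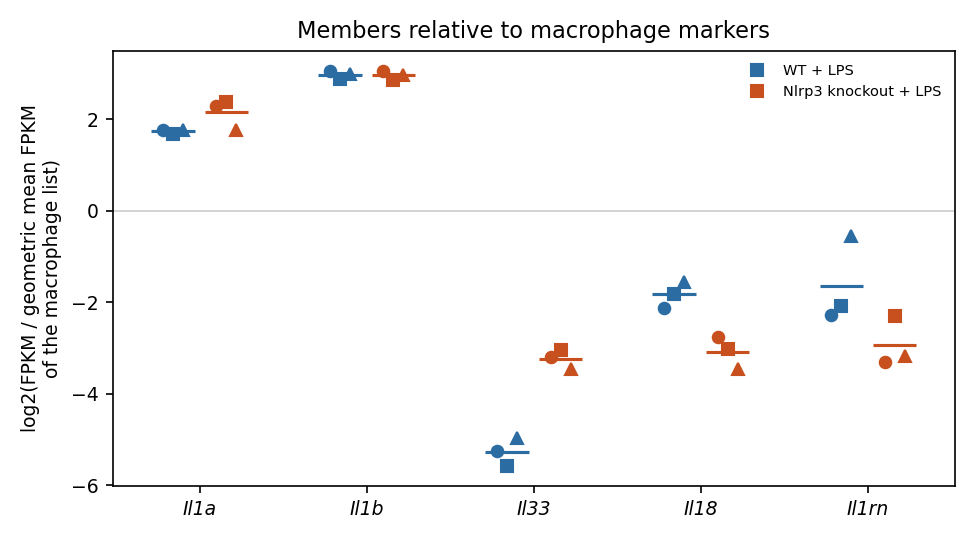
Log2 ratio of each ligand and of Il1rn to the geometric mean FPKM of 22 macrophage markers, by library. Blue symbols are WT and orange symbols knockout libraries, shaped by replicate as in the plot of FPKM by library, and lines are group means. Il1b lies between 2.86 and 3.07 in all 6 libraries, and Il33 is higher in every knockout library.

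Most markers of other cells that make or sense these cytokines did not pass the expression filter. Of 9 mast cell and basophil genes 2 passed the filter, Mcpt8, which rose from 0.783 to 1.79 FPKM, and Gata2, which fell from 4.39 to 1.58, while Kit and Cpa3 had means of at most 0.013 FPKM, and Mcpt4, Tpsab1 and Fcer1a were at 0 in all libraries. The endothelial markers Pecam1, Cdh5 and Kdr stood at or below 0.087 FPKM on average. Eng, which the stromal list also holds, was the only one of 8 that was tested, and it fell (log2 fold change -1.43). Of 14 lymphoid genes 3 were tested, of which Trac rose and Ebf1 fell, with Cd3e, Cd3g, Ms4a1 and Ncr1 at 0 throughout. Of 12 granulocyte genes 4 were tested, of which 3 rose and 1 fell, and Elane, Ngp, Cxcr2 and Retnlg were at 0. The summed FPKM of the granulocyte list was 11.9 to 12.8 in WT and 15.8 to 20.6 in knockout libraries. The 3 tested genes of 11 dendritic cell and MHC class II genes rose, with a summed FPKM of that list of 6.29 to 8.41 in WT and 13.3 to 15.7 in knockout libraries. Of all tested genes 10.4% were called higher and 9.2% lower.

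Genes that process or release IL-1 moved in both directions. Of 17 genes 8 were tested, of which 1 rose and 3 fell (median log2 fold change -0.06, against 0.01 over all tested genes), and the targeted gene Nlrp3 is among the 3. Of all tested genes 10.4% were called higher and 9.2% lower. Nlrp3 passed the filter only through the WT libraries, so that its counting as lower was built into its being tested. Casp1, the protease that cleaves the IL-1β precursor, had 0.44, 0.64 and 0.70 FPKM in WT and 4.17, 4.47 and 3.83 in knockout libraries (log2 fold change 1.70, limma adjusted p = 8.41e-05). Like Il33, it was tested only because of the knockout libraries, so that its counting as higher was built in as well. The other called genes, Gsdmd and Capn1, both fell. Gsdmd, the pore-forming protein through which IL-1β leaves the cell, fell from 27.8 ± 1.32 to 15.6 ± 0.91 FPKM (SD, n = 3; -0.80, adjusted p = 0.000482), and Capn1, a calpain, fell from 31.0 to 19.6. Pycard, the inflammasome adaptor, was below the filter at 0.467 and 0.40 FPKM. In edgeR on the estimated counts, which tests lower genes and called 16.6% of 17479 genes, the sensor genes Nlrc4 (0.180 to 0.457) and Mefv (0.05 to 0.263) were also higher (adjusted p = 0.0163 and 0.0349).

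Few genes that carry the signal from the receptor complex were called, 2 of 26 tested (27 listed), against 19.6% of all tested genes. Ikbkg, which encodes NEMO of the IκB kinase, rose from 3.23 ± 0.258 to 6.53 ± 1.44 FPKM (SD, n = 3) and the ubiquitin-conjugating enzyme gene Ube2n from 11.7 to 15.7, none fell, and the median log2 fold change was 0.09. The call for Ube2n (limma adjusted p = 0.0258) was lost without any one of WT replicates 1, 2 and 3 or knockout replicates 1 and 2, with adjusted p-values of 0.0577 to 0.0933. Without knockout replicate 3, 6 genes of the list rose. Myd88, the adaptor of the receptors, stood at 18.1 and 15.6 (adjusted p = 0.245), and the kinase genes Irak1, Irak2, Irak3 and Irak4 and the ligase gene Traf6 were not called. Mapk14, which encodes p38α, had means of 15.6 FPKM in WT and 7.43 in the knockout, with every knockout library below every WT library and WT replicate 3 close to them, and was called lower by edgeR (adjusted p = 0.0446) but not by limma (0.0855).

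Genes that IL-1 and LPS both induce through NF-κB split between the directions. Of 29 tested genes of 30, 14 rose and 9 fell (median log2 fold change 0.34), against 10.4% and 9.2% of all tested genes. The neutrophil growth factor gene Csf3 rose from 2.62 to 19.1 FPKM, the neutrophil chemokine Cxcl2 from 10.3 to 54.5, the nitric oxide synthase gene Nos2 from 9.48 to 38.3 and the collagenase Mmp13 from 10.1 to 34.0. The gelatinase Mmp9 fell from 139 to 9.15, the chemokine Cxcl5 from 330.0 to 28.3, the metalloreductase Steap4 from 16.7 to 2.30 and Csf2, the granulocyte-macrophage colony-stimulating factor, from 6.02 to 2.21. Cxcl1 stood at 215.0 and 215.4 and Il6 at 30.0 and 38.2, and neither was called (adjusted p = 0.998 and 0.445).

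**Figure D5:**
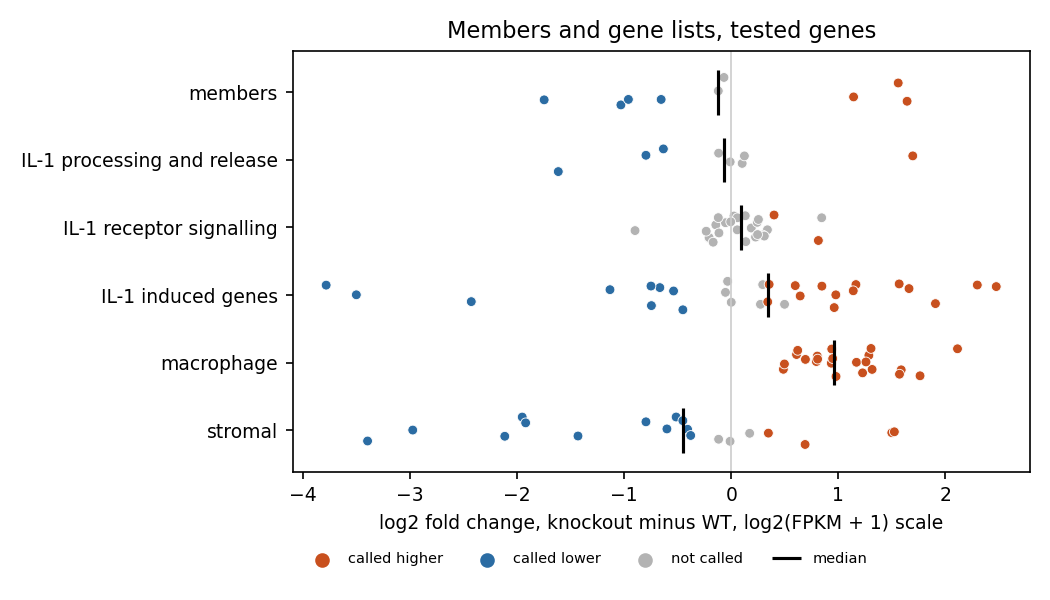
Log2 fold change, knockout minus WT, of the tested members and of tested genes of 5 gene lists, on the log2(FPKM + 1) scale. Each point is a gene, coloured by its limma call, placed at random height within its row, and black bars are medians. The signalling genes cluster near 0 with a median of 0.09, the induced genes spread from -3.79 to 2.48, and all 22 macrophage markers lie above 0.

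The genes whose profile over the 6 libraries was nearest to that of a member were listed by the root mean square difference of log2(FPKM + 1), each gene centred on its own mean, among the 12136 tested genes. For Il1b these were Manf (0.054), Pf4 (0.054) and the chemokine gene Ccl9 (0.068). Pf4, a platelet and macrophage chemokine, went from 52.1 to 124 FPKM. For Il1a they were Epha3 (0.064), Serpinb2 (0.067) and Plek (0.074). All of them had the lower value in knockout replicate 3, which a choice by likeness to Il1a favours. Epha3, with means of 0.333 FPKM in WT and 2.70 in the knockout, passed the filter only through the knockout libraries. For Il33 the nearest genes were Mmp13 (0.064), Cd24a (0.071) and the gap junction gene Gja1 (0.072). This likeness holds on the log2(FPKM + 1) scale only. Mmp13 went from 10.1 to 34.0 FPKM, Cd24a from 6.03 to 21.2 and Gja1 from 5.64 to 18.4. The 9.08-fold rise of Il33, from 0.357 to 3.24 FPKM, was larger than theirs. For Il1r1 the nearest genes were the stromal surface marker gene Cd248 (0.029), the homeobox gene Hoxb6 (0.035) and Pcdhb17 (0.064). Cd248 fell from 150 to 43.4 FPKM. These likenesses are descriptions over 6 libraries in 2 groups.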

How the data were processed

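Polyadenylated RNA of 6 libraries was sequenced as paired reads of 150 bases, per the labels' protocols and the series text. Cutadapt 1.9, HISAT2 2.0.4, StringTie 1.3.4d and build GRCm38 are named, per the submitters' processing notes. Counting step, annotation release and strand setting were not given in the sources used, and overlapping genes may share reads. The authors deposited FPKM values and whole-number estimated counts per gene, per the file headers. Over 5837 genes with at least 5 FPKM and 300 counts, 100% of count to FPKM ratios lay within 1% of 1 factor per library, and 44.4% of counts up to 16 were multiples of 4, so that 1 fragment was read as 4 counts, an inference from the values.

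From these values, limma 3.58.1 in R 4.3.3 (eBayes with intensity trend, genotype as the only term) was run on log2(FPKM + 1) as described in the report. Alternatives were edgeR 4.0.16 (quasi-likelihood) and DESeq2 1.42.0 on the estimated counts, edgeR on counts divided by 4 and rounded, pseudocounts of 0.1 and 0.5, other filters, TMM scaling, a replicate block and each library left out. The fits were tested on simulated data. Intervals cover the spread between libraries and fragment numbers set only the counting error. The members, the 11 other gene lists (198 entries with the members, all matched, 4 through an older symbol) and the tests were chosen with earlier results of these data known. Named list genes are those nearest in profile, the 4 highest and 4 lowest called genes of each pathway list and the 2 highest and 2 lowest of the macrophage and stromal lists (no macrophage marker fell, and none is named for the low end); others, such as Adgre1, Ptprc, Myd88, Pycard, Nlrc4, Mefv, Mapk14, Cxcl1 and Il6, were chosen after their values were seen. Titles number the libraries by day, 1 to 3, but a second label has day 1 throughout, and the number serves here as a name.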

Additional observations from a re-analysis of the deposited data

How the results depend on the processing

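The calls of Il1a, Il1b, Il33, Il1r1 and Il1rap held under every alternative that tested them, and Il1rn and Il18 were called under none. A tally covered the members and the list genes named for their highest or lowest fold changes. In it 457 values kept their side of the threshold, 14 lost the call and no called value changed sign. The uncalled Il1rn (-0.36 to 0.32) and Il18 (-0.20 to 0.05) took either sign. Other named genes, such as Mapk14, Nlrc4 and Mefv, were not in the tally. Il1rl1 and Il18bp were the members whose calls were lost, as given in the report. Members lower numbered 4 in the report, 3 with no FPKM filter and 2 with an FPKM minimum of 5, where fewer genes are tested. Members higher numbered 3 in the report and 2 with that minimum, where Il33 was not tested. With 1 library left out, members lower ranged from 2 (without WT replicate 3) to 4, genes lower from 721 (without WT replicate 1) to 1314, the signalling list from 1 to 6 higher and from 0 to 1 lower, and Il1rl2, the only called gene of the other family members, was lost (0) in 2 cases. Genes higher, 1264 in the report, numbered 817 with an FPKM minimum of 5, and genes lower, 1117 in the report, numbered 1677 in DESeq2. Genes of the processing list called higher, 1 in the report, numbered 3 in edgeR on counts, fragments or without filter, in DESeq2 and with no FPKM filter, and 0 with an FPKM minimum of 5, which also left 0 of the other family members lower and 1 signalling gene higher. With no FPKM filter 1 other family member, Il1f9, was higher. Signalling genes called lower, 0 with limma, numbered 2 in edgeR on counts or fragments and in DESeq2 and 1 in edgeR without filter. For Il1r2, which had no test in the report, DESeq2 and edgeR without filter gave log2 fold changes of -1.05 and -1.01 (adjusted p = 0.723 and 0.617). The cause of these shifts was not tested where none is named.

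Correlations of the deviations from the group means over 12136 genes were 0.02, 0.17 and 0.10 for libraries numbered 1, 2 and 3. WT replicates 2 and 3 correlated best with the knockout library of their own number, and WT replicate 1 with knockout replicate 3 (0.08), so that the values do not establish a pairing, and the libraries are taken to share only a number. With the replicate block 1106 genes were higher and 980 lower, 3 members were higher and 3 lower, and Il1rl1 was not called (adjusted p = 0.0565); the agonist and receptor ratios differed by 1.43 and -1.08 (exact sign-flip p = 0.25, the smallest possible). Depth limits Il1r2 and, in WT libraries, Il33.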
